A study of Mus musculus with 1 sample.

Results

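The respiratory chain genes are the 97 rows of the WT count table whose symbols name a subunit or close relative of complexes I to V. They comprise 84 nuclear genes (the Nduf, Sdh, Uqcr, Cox4 to Cox8 and Atp5 symbols, without the Ndufaf assembly factors) and the 13 protein-coding genes of the mitochondrial genome, of 51912 rows in all. Members were chosen by symbol alone, and 6 pseudogene rows with 27 UMIs together were left out. All 84 nuclear and all 13 mitochondrial members had at least 1 UMI (unique molecular identifier, which counts each captured transcript once).

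To describe these genes by cell type, sc-RNA Seq data from wild-type (WT) C57BL/6 mice at P0, the day of birth, were used, taken from the cerebral cortex. There was 1 library, labelled wild type with no transgene or treatment named, prepared with the 10x Chromium 3′ chemistry. How many animals it held is not given in the sources used here, although the design text speaks of triplicates. The SERPINA3 knock-in mice that the series also names were not analysed here. With 1 library there is no replicate and no test, so each interval given is an exact 95% interval for counting error only.

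The library held 11062 cells and 90346034 UMIs, with a median of 7196.5 UMIs per cell, and no barcode occurred more than once. A total of 9018 cells had at least 1000 detected genes, which was the minimum used here. Cells were put into 18 classes by gates on UMIs of marker genes. The gate of a single class was met by 4907 cells, those of 2 classes by 2 cells, which were left out, and none by 4109 cells. Dividing progenitors were taken by Top2a and Mki67, radial glia or astrocytes by Aldoc, Aldh1l1, Hopx, Gja1 and Aqp4, and oligodendrocyte precursors by Pdgfra with Olig1 or Olig2. Layer neurons had to carry Neurod2 or Neurod6 and were split by Cux1 and Cux2 (II/III), Rorb (IV), Bcl11b with Fezf2 (V) and Foxp2 and Tle4 (VI), and interneurons by Gad1, Gad2 and Dlx genes. In 13 classes there were at least 30 cells, and the median depth of these ran from 4579 UMIs in Adarb2 interneurons to 20505 in layer V neurons. All 4 markers outside the gate were highest in the dividing progenitors, all 5 in radial glia or astrocytes, all 4 in oligodendrocyte precursors and all 4 in newborn neurons. Olig glial progenitors (Olig1 or Olig2 without Pdgfra) overlapped with 2 of these classes. Per 1000000 UMIs they had 2777 counts of the division markers (5209 in dividing progenitors) and 15162 of the radial glia markers (32901 in that class). Their oligodendrocyte precursor markers summed to 55.2, against 1525 in the precursors. For the layer VIb class, 0 of 3 such markers were highest there, and their sum was 271 counts per 1000000 UMIs against 400.4 in layer II/III and 353 in Cajal-Retzius cells, so it is called by its gate (Ctgf, Ccn2, Cplx3 or Nxph4). Of the layer VI markers 1 of 4 was highest in layer VI and 2 under the layer VIb gate, and of the layer IV markers 1 of 3 in layer IV, although each list's sum was highest in its own layer. Of the Adarb2 interneuron markers 1 of 3 was highest in that class, and their sum was 590 counts per 1000000 UMIs there, 575 in Lhx6 or Sst interneurons, 611 in mural cells and 799 in Cajal-Retzius cells. The summed layer II/III markers were slightly higher in layer IV (1972.5 counts per 1000000 UMIs) than in layer II/III (1922.9), and those of layer V higher in Cajal-Retzius cells (1236) than in layer V (929). Hemoglobin genes summed to 8648 counts per 1000000 UMIs in the 16 endothelial cells, which are therefore not described further.

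Oxidative phosphorylation passes electrons from NADH (complex I) and succinate (complex II) through ubiquinone, complex III and cytochrome c to oxygen at complex IV, and complex V uses the resulting proton gradient to make ATP. Complexes I, III, IV and V join subunits of both genomes, whereas complex II is wholly nuclear. Several nuclear subunits have paralogs that replace each other by tissue, such as Cox4i1 and Cox4i2 or the 3 Atp5g genes, which all encode the same mature c subunit of the ATP synthase rotor. Radial glia and other progenitors rely to a large extent on glycolysis, and mitochondrial content is known to grow as neurons mature.

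The mitochondrial mRNAs were lower in the progenitor and glial classes of at least 30 cells than in layer neurons. The summed nuclear genes of these classes, by contrast, had ratios of 0.936 to 1.07 to layer neurons. Nuclear levels are given as counts per 1000000 UMIs of non-mitochondrial genes (CPM), and mitochondrial mRNAs as a share of all UMIs. The nuclear sum was 22750 CPM in dividing progenitors (22287 to 23220) and 23694 in radial glia or astrocytes (23459 to 23931). It was 26051 in Olig glial progenitors, which carry Olig1 or Olig2 without Pdgfra, 25894 in oligodendrocyte precursors and 23958 in newborn (Eomes) neurons. Among layer neurons it was 23355 in young layer II/III cells (those with Igfbpl1), 24739 in layer II/III, 24482 in layer IV, 28096 in layer V, 24637 in layer VI and 29664 under the layer VIb gate. Interneurons with Lhx6 or Sst reached 29401 CPM and those with Adarb2, Prox1 or Sp8 reached 24413. Of the classes with under 30 cells, 17 Cajal-Retzius cells had 30959 CPM, 24 mural cells 29596 and 13 microglia 22719.

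The mitochondrial mRNAs took 1.42% of UMIs in dividing progenitors (1.39 to 1.46) and 1.43% in radial glia or astrocytes (1.41 to 1.45), whose intervals overlap. The share was 1.54% in Olig glial progenitors, 1.82% in oligodendrocyte precursors and 2.03% in newborn neurons. It was 2.29% in young layer II/III cells, 2.43% in layer II/III, 2.38% in layer IV, 2.33% in layer V, 2.13% in layer VI and 2.11% under the layer VIb gate. The values of Lhx6 or Sst and of Adarb2 interneurons were 2.19% and 1.82%. Among smaller classes, 13 microglia had 2.28%, 24 mural cells 2.23% and 17 Cajal-Retzius cells 2.20%, against 2.27% in all layer neurons. Microglia were thus not lower than layer neurons. Per cell, the quartiles were 1.06% and 1.62% in radial glia or astrocytes and 1.87% and 2.53% in the 3859 layer neurons, so that the upper quartile of the first class lay under the lower quartile of the second. Mitochondrial UMIs per nuclear UMI ran from 0.604 in Olig glial progenitors, 0.618 in radial glia or astrocytes and 0.639 in dividing progenitors through 0.874 in newborn neurons to 1.02 in both layer II/III classes, over the 13 classes of at least 30 cells. Within neurons this number was lower in the deep layers (0.876, 0.872 to 0.881) than in the upper layers (1.01), and lower again in interneurons (0.772, 0.761 to 0.782).

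**Figure D1:**
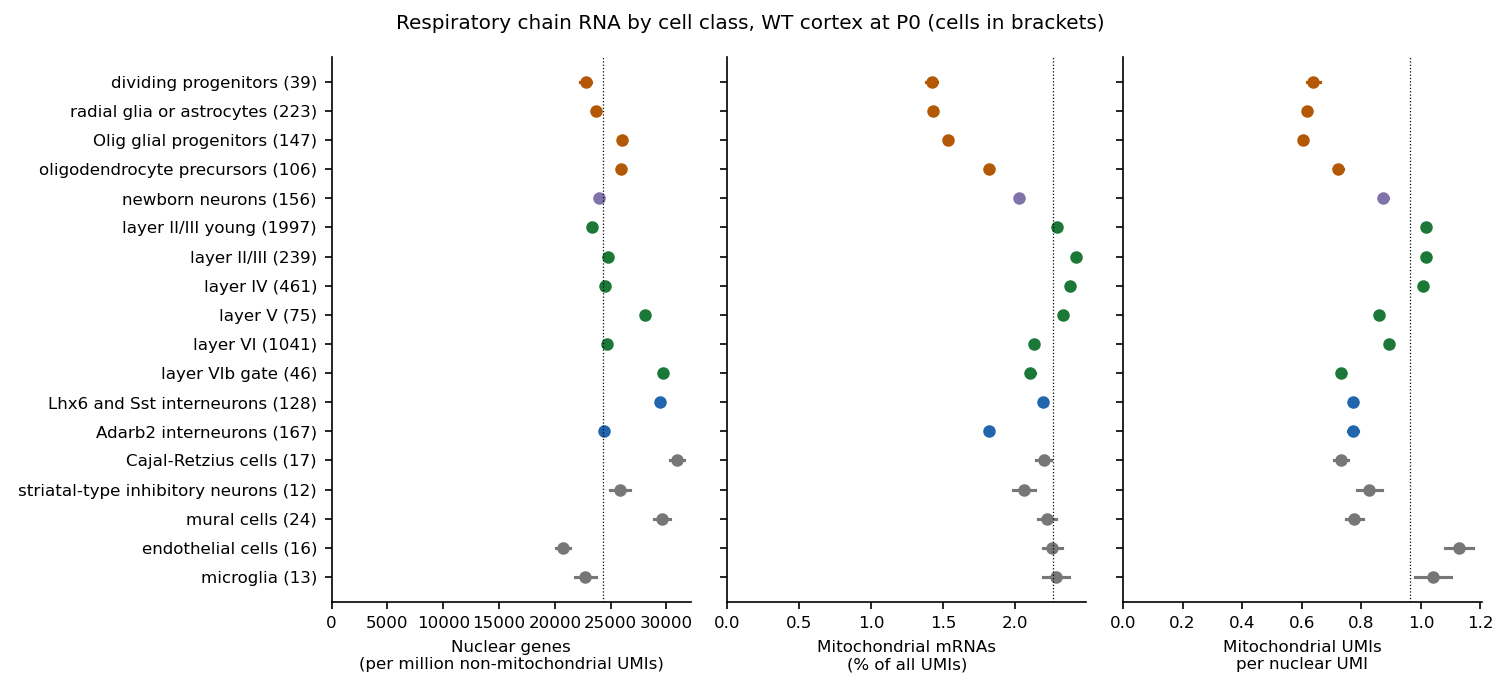
Levels of the respiratory chain in each cell class, with the nuclear genes in CPM on the left, the mitochondrial mRNAs as a percentage of all UMIs in the middle and their quotient on the right; points are class sums, bars exact 95% intervals for counting error, the dotted line all layer neurons, and brackets give the cells. The nuclear sums lie between 20727 (endothelial cells, the class with hemoglobin) and 30959. The mitochondrial share is 1.42% to 1.82% in the 4 progenitor and glial classes of at least 30 cells and 2.11% to 2.43% in the layer classes.

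Set against all layer neurons (24314 CPM and 2.27%), the nuclear sum was 0.936 times as high in dividing progenitors (0.917 to 0.955) and the mitochondrial share 0.627 times (0.611 to 0.643). In radial glia or astrocytes the ratios were 0.975 for the nuclear and 0.631 for the mitochondrial genes (0.623 to 0.640). They were 0.985 and 0.895 in newborn neurons, and 1.12 and 0.898 in interneurons. The nuclear sum of Adarb2 interneurons, 24413 CPM, was near that of layer neurons, and Lhx6 or Sst interneurons had 29401 CPM. Deep over upper layers gave 1.07 and 0.927, so in these pools, too, the 2 genomes' transcripts differed in opposite directions. Single layers did not all follow the pools. Layer VI, with 1041 of the 1162 deep cells, had 24637 CPM against 24739 in layer II/III, and the mitochondrial share was 2.33% both in layer V and in the upper layers. Young layer II/III cells were 1997 of the 2697 upper cells and had the lowest nuclear sum of the layer classes, 23355 CPM. Their part in the pooled ratios was not tested. Layer V over layer VI (1.14 and 1.09), layer II/III over its young cells (1.06 and 1.06) and Lhx6 or Sst over Adarb2 interneurons (1.20 and 1.21) had both sets higher. These mitochondrial ratios cover the 13 protein-coding genes. Over all 37 mitochondrial rows the share was 3.30% in interneurons and 3.29% in layer neurons. It was 3.34% in Lhx6 or Sst and 3.25% in Adarb2 interneurons, 2.20% in dividing progenitors and 2.17% in radial glia or astrocytes. Deep layers had 3.07% and upper layers 3.40%.

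Immediate early genes, which dissociation is known to induce, were also uneven between these classes. Of 10 listed, 7 had a mean of at least 20 CPM over radial glia or astrocytes and layer neurons, and these were at least 1.5-fold higher in the former, with Fos at 821 against 36.8 CPM, and 5 of 6 were in dividing progenitors (27.8% and 31.8% of all genes were). Fosb and Nr4a1 reached that mean only through the class where they were high, and Npas4, with 0 UMIs in radial glia or astrocytes against 200 in layer neurons, did not reach it. The same held for 7 of 7 in Olig glial progenitors, 6 of 6 in oligodendrocyte precursors, 4 of 5 in interneurons and 3 of 5 in newborn neurons (27.8%, 23.9%, 9.34% and 17.2% of all genes). In newborn neurons the other 2, Jun (0.56) and Junb (0.55), were lower past the fold, as was Ier2 (0.59) in interneurons. When only cells with at most 5 UMIs of these genes were kept, 10 dividing progenitors, 61 radial glia or astrocytes and 3286 layer neurons remained. This limit is on raw UMIs, so it can also favour cells of low depth, and the depth of the cells kept was not examined. The mitochondrial ratio was then 0.746 in dividing progenitors and 0.669 in radial glia or astrocytes, and the nuclear ratio of dividing progenitors lay above 1, at 1.06. Their part in the differences between single genes was not tested beyond the values given for this setting.

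By complex, the nuclear parts of complexes II and III leaned to radial glia or astrocytes and those of complexes IV and V to layer neurons. The ratios in radial glia or astrocytes were 1.04 for complex I, 1.18 for complex II (1.10 to 1.26), 1.15 for complex III (1.12 to 1.19), 0.901 for complex IV and 0.910 for complex V. Dividing progenitors gave 0.975, 1.17, 1.01, 0.892 and 0.902 in the same order. In the pooled interneurons complex IV stood out with 1.21 (1.19 to 1.23), beside 1.09, 1.06, 1.05 and 1.08 for complexes I, II, III and V. The interneuron classes differed in this. For complex IV, Lhx6 or Sst interneurons had 9810 CPM and Adarb2 interneurons 8157, against 7516 in layer neurons. Adarb2 interneurons lay below layer neurons in complexes I (7088 against 7336 CPM) and II (396 against 430). The same held for complexes III (2196 against 2293) and V (6576 against 6740). Newborn neurons lay between 0.928 for complex V and 1.07 for complex III.

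Single genes moved apart from these sums. A gene was counted when its CPM differed at least 1.5-fold between the classes and its mean over both was at least 20 CPM, which 74 of the 84 nuclear members met in each comparison. The 10 below the minimum had no such call. Between dividing progenitors and layer neurons 5 members were higher and 6 lower, whereas 31.8% and 24.4% of all 7359 genes with this minimum passed the same fold upward and downward (56.2% in all). In radial glia or astrocytes 4 were higher and 5 lower (27.8% and 26.7% of all genes, 54.5% together). In oligodendrocyte precursors these counts were 6 and 3 (23.9% and 21.3%, together 45.2%), and in Olig glial progenitors 8 and 1 (27.8% and 24.5%, together 52.2%). The total of Olig glial progenitors, 9, ran from 1 to 16 over 9 alternative settings and differed in 3 of them. In newborn neurons they were 2 and 0 (17.2% and 14.3%, together 31.5%). That count was 4 or 5 in 5 of 9 alternative settings, and in dividing progenitors 18 members passed with few immediate early UMIs. Interneurons over layer neurons had 2 and 0 (9.34% and 9.01%, together 18.4%), and deep over upper layers 1 and 0 (7.91% and 6.57%, together 14.5%). Lhx6 or Sst over Adarb2 interneurons had 8 and 1 (17.1% and 18.1%, together 35.3%). No member passed between layer II/III and its young cells (5.1% upward and 3.82% downward, together 8.91%) or between layers V and VI (5.73% and 13.9%, together 19.7%). The count between layers V and VI differed in 5 of 9 alternative settings. It was highest with cells of 5000 to 15000 UMIs alone, which left 8 layer V cells, where 11 members passed. In each comparison the share of members past the fold was under that of all genes. The latter were not matched to the members in CPM, and the part of expression level in this was not tested. The median ratio of members was 0.895 in dividing progenitors (1.07 over all genes), 0.960 in radial glia or astrocytes (0.989), 1.08 in interneurons (1.03), 1.15 in layer V over layer VI (0.930) and 1.21 in Lhx6 or Sst over Adarb2 interneurons (0.975).

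**Figure D2:**
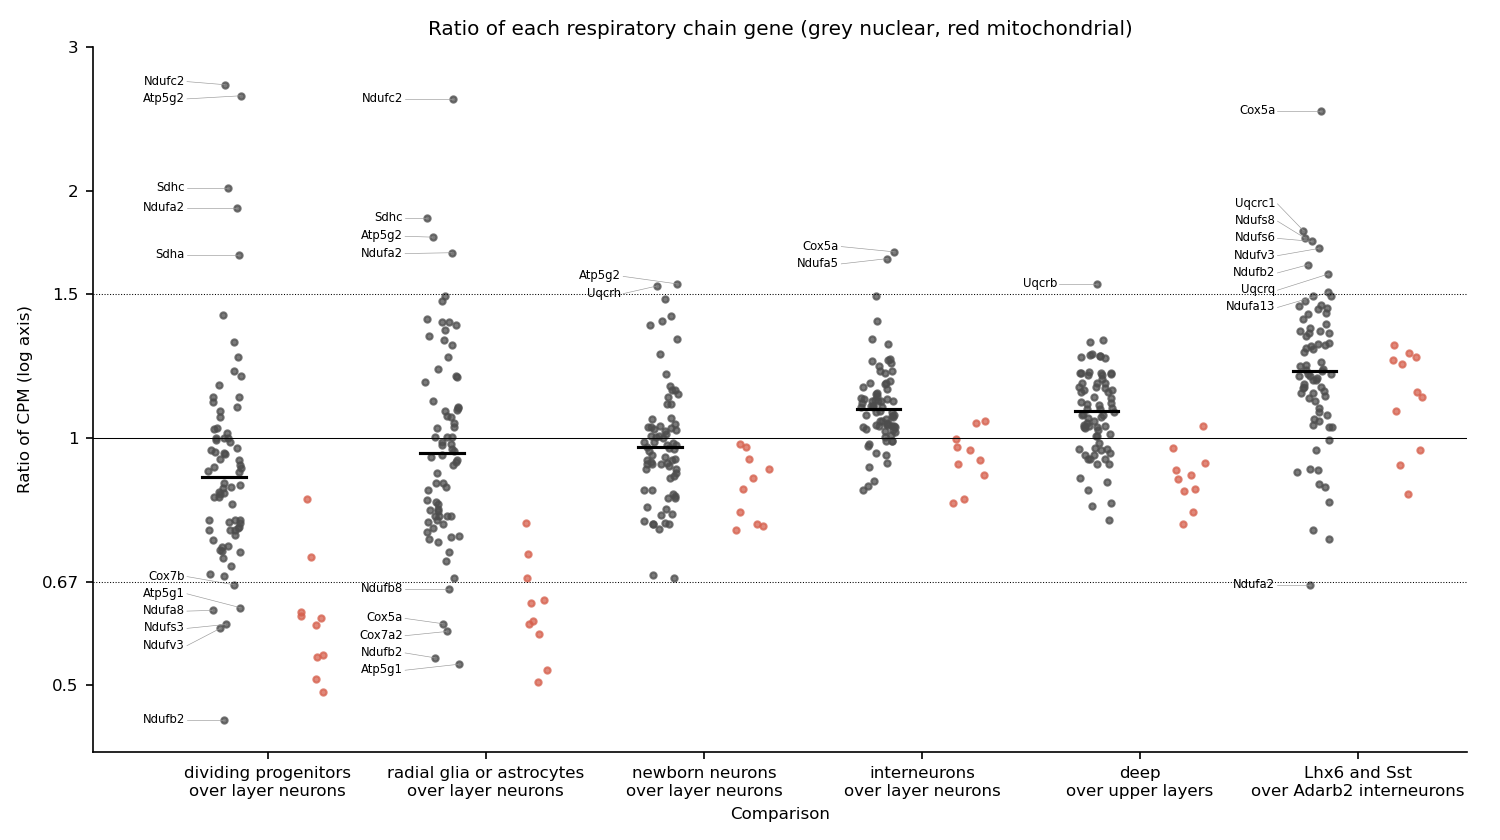
Ratio of CPM of each respiratory chain gene of at least 20 CPM in 6 comparisons, on a log axis; grey points are nuclear and red points mitochondrial genes, the black bar is the median nuclear gene, dotted lines mark 1.5-fold, and nuclear genes beyond them are named. Ndufc2 leads in dividing progenitors at 2.70 and in radial glia or astrocytes at 2.60, Cox5a leads among interneurons at 2.50, and all 10 mitochondrial genes lie under the nuclear median of 0.895 in dividing progenitors.

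In complex I, Ndufc2 had the highest ratio of the 74 members past the minimum in dividing progenitors, radial glia or astrocytes and Olig glial progenitors. This accessory subunit of the membrane arm was at 859 CPM in dividing progenitors, 827 in radial glia or astrocytes and 831 in Olig glial progenitors. It was at 419 CPM in oligodendrocyte precursors, 442 in newborn neurons and 297 to 428 in the interneuron classes. Layer neurons ran from 290.3 CPM in layer II/III to 394 in layer V, with 453 under the layer VIb gate. Dividing progenitors, radial glia or astrocytes and Olig glial progenitors therefore lay above every neuronal class of at least 30 cells. The ratio to layer neurons was 2.70 in dividing progenitors (2.42 to 3.0) and 2.60 in radial glia or astrocytes (2.45 to 2.74), and over all alternative settings it stayed between 2.32 and 2.85 and between 2.54 and 3.21. Its last 500 bases shared no 50-base stretch with another annotated transcript. The 140 bases before its start in RefSeq (GRCm38.p6), shown because of these ratios, carry neither of the motifs described for the Atp5g genes:
Ndufc2, chr7:97399863-97400002, plus strand: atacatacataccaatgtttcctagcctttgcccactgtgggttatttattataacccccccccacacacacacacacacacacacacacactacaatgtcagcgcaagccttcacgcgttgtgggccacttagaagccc

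Ndufa2, an accessory subunit of the matrix arm, ran the same way, with 510.2 CPM in dividing progenitors and 449 to 452 in the 3 glial classes, against 252 to 277 in layers II to VI. Its ratios were 1.91 in dividing progenitors and 1.68 in radial glia or astrocytes. Its exons overlap those of Tmco6 on the other strand by 66 bases, and whether the counting used strand is not stated. Ndufb11, of the membrane arm, was highest in oligodendrocyte precursors (446 CPM, ratio 1.81), as was the core iron-sulfur subunit Ndufs8 (114 CPM, ratio 1.77).

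Other complex I genes were lower in dividing progenitors or in radial glia or astrocytes. Ndufb2 was at 86.7 CPM in dividing progenitors and 103 in radial glia or astrocytes, and at 167 to 281 in the layer classes. Its ratios were 0.45 and 0.54, and its exons overlap Braf on the other strand by 146 bases. Ndufv3, which belongs to the NADH-binding module, was at 105 to 128 CPM in the 4 progenitor and glial classes and 170 to 289 in layer classes. The core subunit Ndufs3 (0.59) and the accessory Ndufa8 (0.62) were under the fold in dividing progenitors, and Ndufb8 (0.65) in radial glia or astrocytes. With few immediate early UMIs Ndufb2 was at 0.69 in dividing progenitors and Ndufb8 at 0.72 in radial glia or astrocytes, both inside the 1.5-fold limits, while Ndufb2 in radial glia or astrocytes was at 0.32. Of the 50-base stretches in the last 500 bases of Ndufs3, 53.9% occur in another transcript.

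In complex II, the membrane anchor Sdhc had the highest ratio to layer neurons in dividing progenitors and in radial glia or astrocytes. It was at 119 CPM in dividing progenitors, 109 in radial glia or astrocytes, 109.7 in Olig glial progenitors and 87.8 in oligodendrocyte precursors. Newborn neurons had 77.7 CPM and layers II to VI 51.1 to 73.1. The ratios were 2.02 (1.49 to 2.69) and 1.86 (1.59 to 2.16) in the first and second of these classes. The flavoprotein Sdha, which oxidises succinate, was at 141 CPM in dividing progenitors against 84.4 in layer neurons (1.67), but at 1.16 times in the 10 cells with few immediate early UMIs. The other anchor Sdhd reached 1.49 in radial glia or astrocytes and 1.54 in Olig glial progenitors. The iron-sulfur subunit Sdhb, the most abundant of the 4 genes in layer neurons, lay the other way, with 141 CPM in dividing progenitors and 153 in radial glia or astrocytes against 202 (0.70 and 0.76, inside the 1.5-fold limits).

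In complex III, Uqcrh, the hinge protein at the cytochrome c side, was at 815 CPM in oligodendrocyte precursors, 737 in newborn neurons, 730.1 in Olig glial progenitors and 666 in radial glia or astrocytes. Layer classes had 455 to 505. It was 1.69 times as high in oligodendrocyte precursors and 1.53 times in newborn neurons, where it and Atp5g2 were the 2 members past the fold. The latter call was lost with few immediate early UMIs (1.48). Uqcrb, which binds near the ubiquinone site, was the single member past the fold between deep and upper layers. It was at 199 CPM in young layer II/III cells, 237 in layer II/III and 225 in layer IV, then at 292 in layer V, 319 in layer VI and 419.5 under the layer VIb gate. Each of the deep classes lay above each of the upper classes, with a ratio of 1.54 over the sums (1.48 to 1.60), and 46.6% of its last 500 bases occur in another transcript.

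In complex IV, Cox5a, a subunit on the matrix side, was highest in Lhx6 or Sst interneurons. Its level was 1279.7 CPM in Lhx6 or Sst interneurons and 511 in Adarb2 interneurons, a ratio of 2.50 (2.23 to 2.81). Layer classes lay between 530.1 and 687 CPM, with 814 under the layer VIb gate, and radial glia or astrocytes had 335, the lowest of the 13 classes. Over the alternative settings the ratio between the 2 interneuron classes was 2.31 to 2.68. An antisense gene, Gm26631, overlaps 269 bases of its exons and had 510 UMIs in the library against 48502 for Cox5a. The 140 bases before its start are shown because its range over the 13 classes was the widest of the members with a mean of at least 20 CPM, and they hold neither of those motifs:
Cox5a, chr9:57521092-57521231, plus strand: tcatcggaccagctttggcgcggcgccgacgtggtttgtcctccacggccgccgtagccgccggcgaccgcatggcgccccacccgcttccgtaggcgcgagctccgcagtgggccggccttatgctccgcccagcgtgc

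Other members were higher in Lhx6 or Sst interneurons as well. These were Uqcrc1, a core protein of complex III (125 against 69.5 CPM, 1.79), Ndufs8 (1.75), Ndufs6 (1.74), Ndufv3 (1.70), Ndufb2 (1.63), Uqcrq (1.59) and Ndufa13 (1.51). Ndufa2 was lower, at 240.1 against 362 CPM (0.66). Of the 74 members that entered, 63 had a ratio above 1, and the median cell of these classes differed in depth, with 7249 against 4579 UMIs. Of 6 immediate early genes 3 were higher and 1 lower in the same comparison (17.1% and 18.1% of all genes). Ndufa5, of the matrix arm of complex I, was high in both classes (469 and 361 CPM, against 256 in layer neurons) and at 1.66 was with Cox5a the only member past the fold in interneurons as a whole. With few immediate early UMIs it fell just short, at 1.48.

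**Figure D3:**
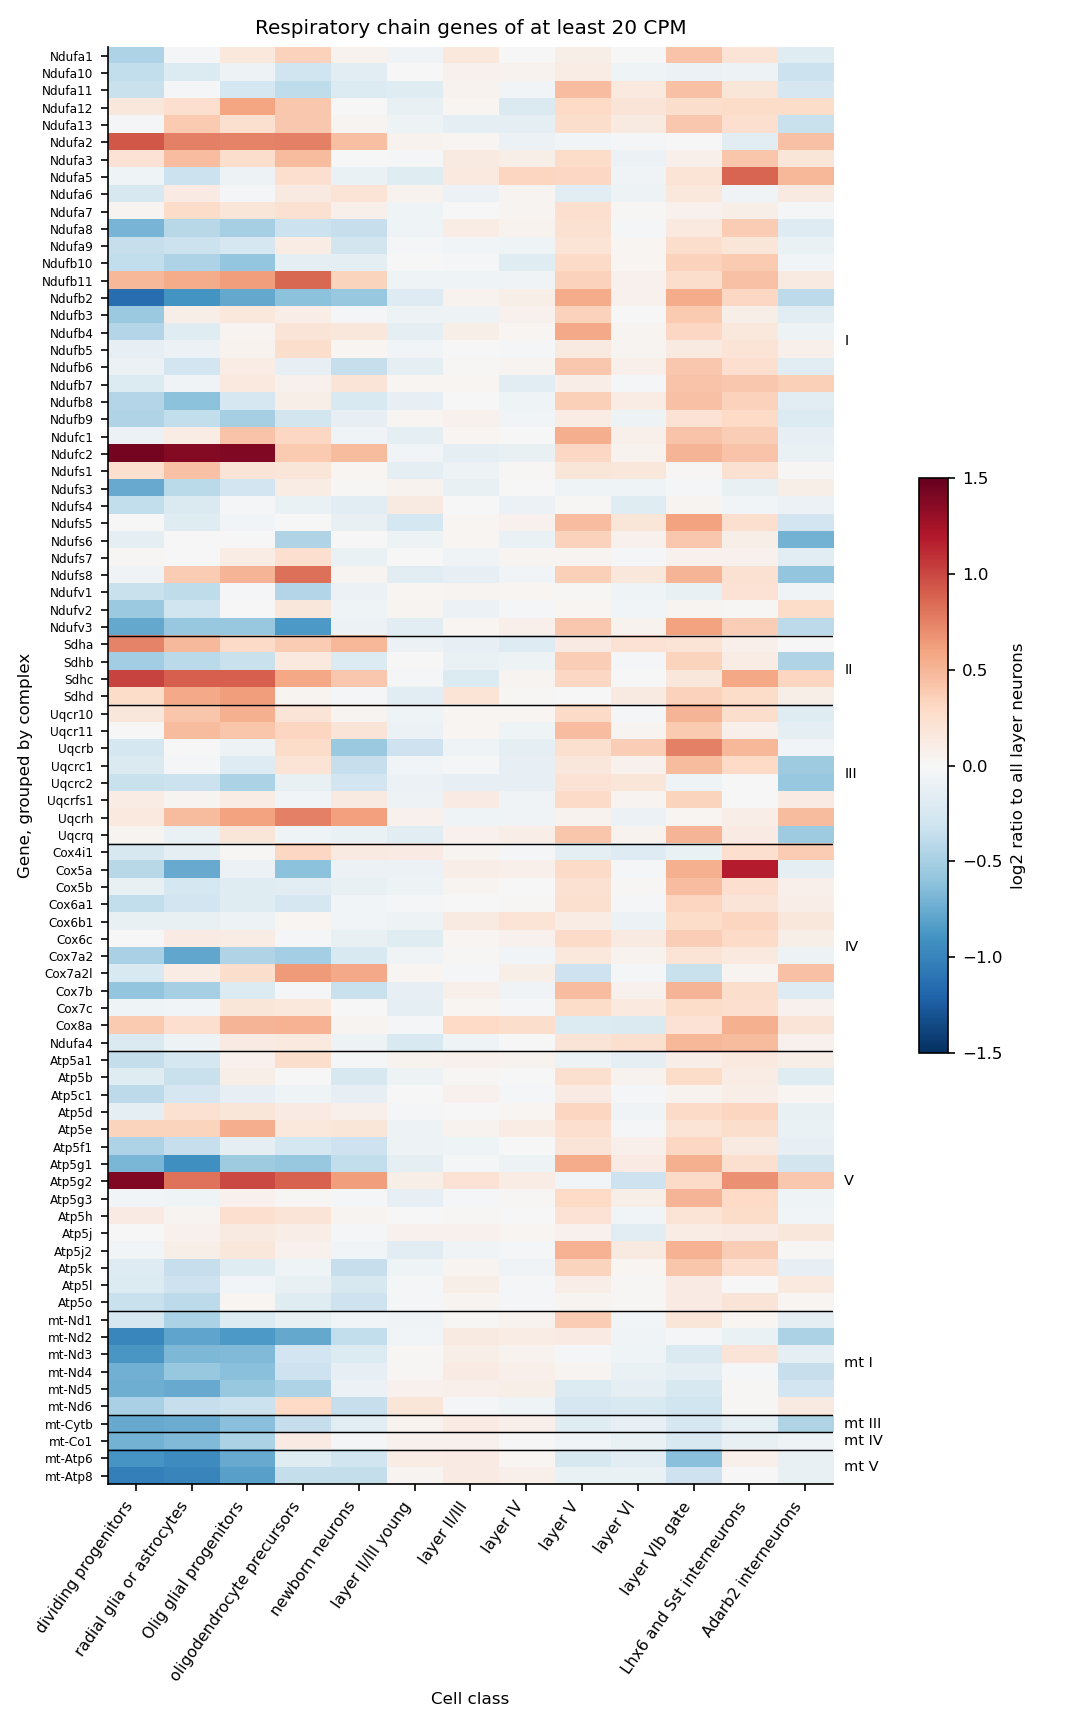
Log2 ratio of respiratory chain genes of at least 20 CPM (rows, grouped by complex, mitochondrial genes last) to its level in all layer neurons, in 13 classes of at least 30 cells (columns); red is higher and blue lower, and the scale ends at 1.5. The mitochondrial rows are blue in the columns of dividing progenitors and of radial glia or astrocytes, Ndufc2 and Atp5g2 are red there, and Cox5a is red in the Lhx6 and Sst column.

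Some structural subunits of complex IV went against the trend between layers. Cox8a was at 795 CPM in layer II/III and 778 in layer IV, and at 559 in layer V and 554 in layer VI, with a deep over upper ratio of 0.83. Cox4i1, the common form of the largest nuclear subunit, gave 950 against 1139 CPM (0.83). Ndufa4, which joins complex IV, lay the other way with 1033 CPM in deep and 784 in upper layers (1.32). None of these passed the fold.

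To compare paralogs, the UMIs of each isoform were divided by those of its family within a class. Each UMI stands for the 3′ end of a transcript, so a share compares classes rather than molecules per gene. Atp5g1 held 59.9% of Atp5g UMIs in layer neurons (59.3 to 60.4), 52.6% in newborn neurons and 43.4% in radial glia or astrocytes (40.3 to 46.6). Atp5g3 ran opposite, with 36.4%, 40.9% and 47.6%. Atp5g2 had 3.72% in layer neurons, 8.96% in radial glia or astrocytes (7.27 to 10.9) and 11.8% in dividing progenitors (8.28 to 16.2). Layer V had the highest Atp5g1 share, 64.4%, and the 24 mural cells the lowest, 35.6%. In CPM, Atp5g1 was at 266 in radial glia or astrocytes against 503 in layer neurons (0.53, 0.48 to 0.58), Atp5g2 at 54.9 against 31.2 (1.76) and Atp5g3 at 292 against 306. In cells with few immediate early UMIs the Atp5g1 share of radial glia or astrocytes was 51.2%. The Atp5g2 ratio was then 1.001 in radial glia or astrocytes and 0.52 in the 10 dividing progenitors that were left, where it had been 2.62. The Atp5g1 ratio of radial glia or astrocytes stayed at 0.59, while that of dividing progenitors went from 0.62 to 0.92.

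**Figure D4:**
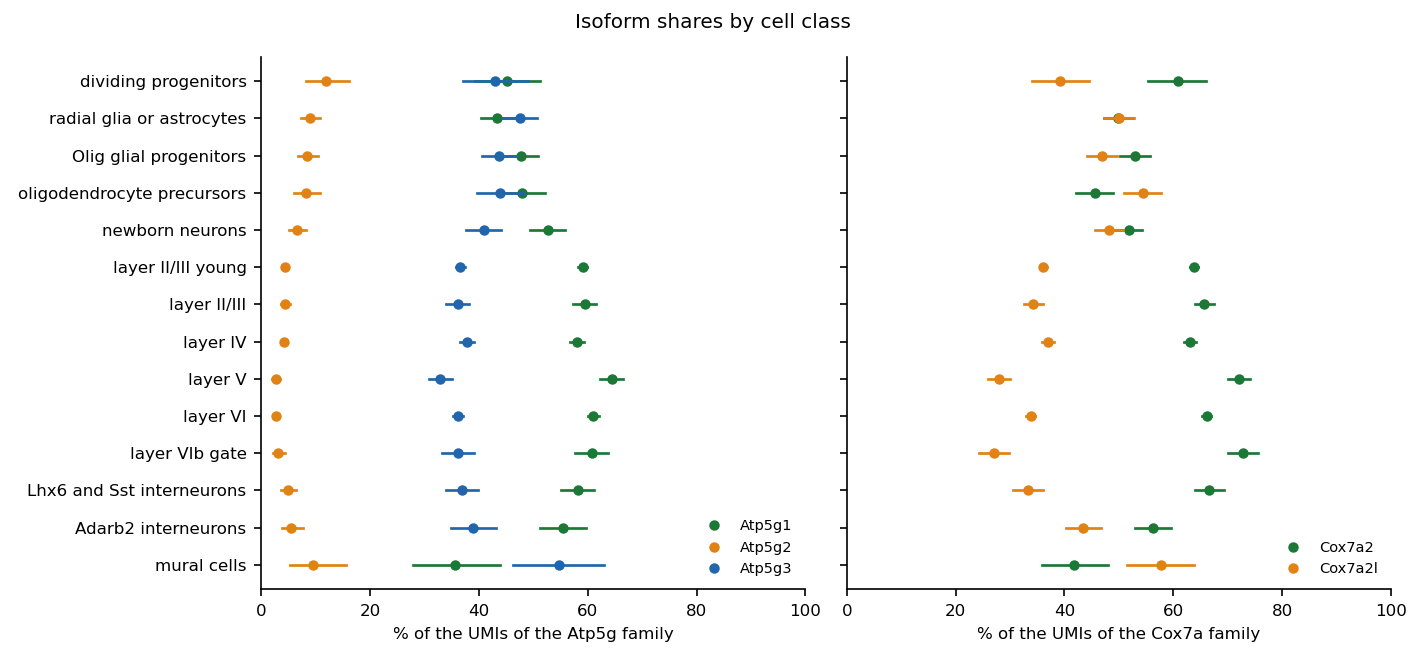
Share of the UMIs of the Atp5g family (left) and of the Cox7a family (right) held by each gene, in percent, in 13 cell classes and mural cells; bars are exact 95% binomial intervals for counting error. The Atp5g1 share is 43.4% to 47.9% in the 4 progenitor and glial classes and 58.1% to 64.4% in the layer classes, and the Cox7a2l share runs from 27.0% to 54.4% over the 13 classes.

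Because these 3 genes give the same mature protein, the 140 bases before each start in RefSeq (GRCm38.p6) are printed to show where they differ. Capitals mark the nuclear respiratory factor 1 (NRF1) motif, GCGCA and GCGC parted by any 1 base, whose single match in these 3 windows is before Atp5g2, where it begins 42 bases ahead of the start:
Atp5g1, chr11:96075632-96075771, minus strand: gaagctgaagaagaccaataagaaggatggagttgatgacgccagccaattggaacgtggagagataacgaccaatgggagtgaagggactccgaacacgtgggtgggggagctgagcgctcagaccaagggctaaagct
Atp5g2, chr15:102671048-102671187, minus strand: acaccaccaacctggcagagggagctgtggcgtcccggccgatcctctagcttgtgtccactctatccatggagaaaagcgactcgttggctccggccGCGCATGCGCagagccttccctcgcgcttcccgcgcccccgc
Atp5g3, chr2:73911327-73911466, minus strand: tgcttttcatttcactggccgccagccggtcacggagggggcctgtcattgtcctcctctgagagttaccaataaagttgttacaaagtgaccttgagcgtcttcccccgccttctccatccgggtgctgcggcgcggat

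The deposited files hold no coordinates, and the submitters' processing notes name another build (mm9), so these positions refer to the RefSeq table alone. For Atp5g3 a match to the same motif begins 13 bases after the start, outside the window shown. Of the 84 nuclear members 66 were matched to a promoter of 250 bases before to 50 after the start. On either strand, 17 of them (25.8%) held the NRF1 motif, against 5.19% of 27025 genes. The core motif CCGGAAG of the ETS family, to which GABP belongs, occurred in 16 (24.2%, against 9.93%), and at least 1 of both in 29 (43.9%, against 14.0%). These are matches of letters, not binding sites. Among the members with no promoter in the table were Ndufs1, Sdhc, Cox4i2, Atp5f1, Atp5sl, Uqcrc2, Cox6a2, Ndufa4l2, Cox4i1, Uqcrq, Uqcrb, Atp5s, Cox8c, Cox6c, Ndufb9, Ndufa2 and Atp5a1.

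In the Cox7a family, Cox7a2l, described as a factor that joins complexes III and IV into supercomplexes, held 34.96% of UMIs in layer neurons. Whether Cox7a2l has that role in these mice was not examined. Its share was 50.04% in radial glia or astrocytes (47.4 to 52.7), 54.4% in oligodendrocyte precursors, 46.9% in Olig glial progenitors and 48.2% in newborn neurons, but 39.2% in dividing progenitors (34.0 to 44.6). Layer V (28.0%) and the layer VIb gate (27.0%) had the lowest shares. In radial glia or astrocytes Cox7a2 was at 419 against 722 CPM in layer neurons (0.58), with Cox7a2l at 421 against 388. In oligodendrocyte precursors and newborn neurons Cox7a2l was at 605 and 574 CPM. With few immediate early UMIs the Cox7a2 ratio of radial glia or astrocytes was 0.69, inside the 1.5-fold limits. The muscle form Cox7a1 was under 3 CPM in all 13 classes of at least 30 cells.

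The rarer isoforms had few UMIs and were uneven between classes. Cox4i2, the form induced at low oxygen, had 41 UMIs in 24 mural cells (202 CPM), which was 10.5% of the Cox4 family there (7.63 to 14.0). Radial glia or astrocytes had 48 UMIs (29.3 CPM, 2.92%) and all 3859 layer neurons 2 UMIs (0.0488 CPM). Mural cell markers summed to 1010 CPM in mural cells and 77.5 in radial glia or astrocytes, where that sum was Notch3 alone and the other 2 markers were at 0. In the 24 mural cells the Cajal-Retzius markers summed to 1365 CPM, those of layer V to 596 and those of oligodendrocyte precursors to 266. The class is therefore called by its gate. Ndufa4l2, also known as a low-oxygen gene, had 99 UMIs in mural cells, 46.5% of its family (39.6 to 53.4) with 562 CPM of Ndufa4, and 5 UMIs in radial glia or astrocytes. The 2 genes thus stood at 41 to 99 UMIs in mural cells but 48 to 5 in radial glia or astrocytes.

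Cox6a2, known as the heart and muscle form, was at 8.81 CPM in layer IV (59 UMIs in 46 of 461 cells), 2.38% of its family (1.82 to 3.06). Layer II/III had 1.19 CPM, layer VI 0.876, Lhx6 or Sst interneurons 4.94, and layer V, dividing progenitors, Adarb2 interneurons and both Olig1 or Olig2 classes had no UMI. Cox6b2, known from testis, was at 12.2 CPM in radial glia or astrocytes and 9.84 in Olig glial progenitors against 0.195 in layer neurons. Mural cells had 29.6 CPM (6 UMIs) and Cajal-Retzius cells 16.7 (5 UMIs). Of Cox7b2, Cox8b and Cox8c the library held 39, 3 and 1 UMIs.

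The mitochondrial mRNAs differed among themselves in how low they were in dividing progenitors and in radial glia or astrocytes. In layer neurons mt-Cytb, the catalytic subunit of complex III, was the highest at 7514 per 1000000 of all UMIs, and it was at 4440 in dividing progenitors (0.59) and 4493 in radial glia or astrocytes (0.60). mt-Nd1, of complex I, kept the highest ratio of those past the minimum in dividing progenitors, at 3769 against 4472 (0.84, 0.80 to 0.89), and was at 0.72 in radial glia or astrocytes. The complex V genes mt-Atp8 (0.49 and 0.50) and mt-Atp6 (0.54 and 0.52) and the complex I gene mt-Nd2 (0.51 and 0.58) were lowest. mt-Co1, the catalytic subunit of complex IV, was at 0.61 and 0.63. Past the 1.5-fold limit were 8 of the 10 that entered in dividing progenitors, 7 in radial glia or astrocytes, 6 in Olig glial progenitors and 1 in oligodendrocyte precursors, all lower, and none in the other comparisons. Of all genes 24.4%, 26.7%, 24.5% and 21.3% were lower past the same fold in these 4 comparisons, in the same order.

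As a share of all mitochondrial mRNAs, mt-Nd1 made up 26.5% in dividing progenitors, 22.5% in radial glia or astrocytes and 25.3% in Olig glial progenitors, against 19.7% in layer neurons. Layer V (24.9%) and the layer VIb gate (24.2%) were high as well, and mt-Nd1 was 1.34 times as high in layer V as in layer VI (1.31 to 1.37). In oligodendrocyte precursors mt-Co1 (1.09) was above layer neurons while mt-Nd2 (0.59) was past the limit. Deep and upper layers differed by 0.81 for mt-Atp6 and 0.87 for mt-Cytb but 1.03 for mt-Nd1. With few immediate early UMIs mt-Cytb was at 0.72 and 0.64 in dividing progenitors and in radial glia or astrocytes, and mt-Nd2 at 0.50 and 0.63.

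**Figure D5:**
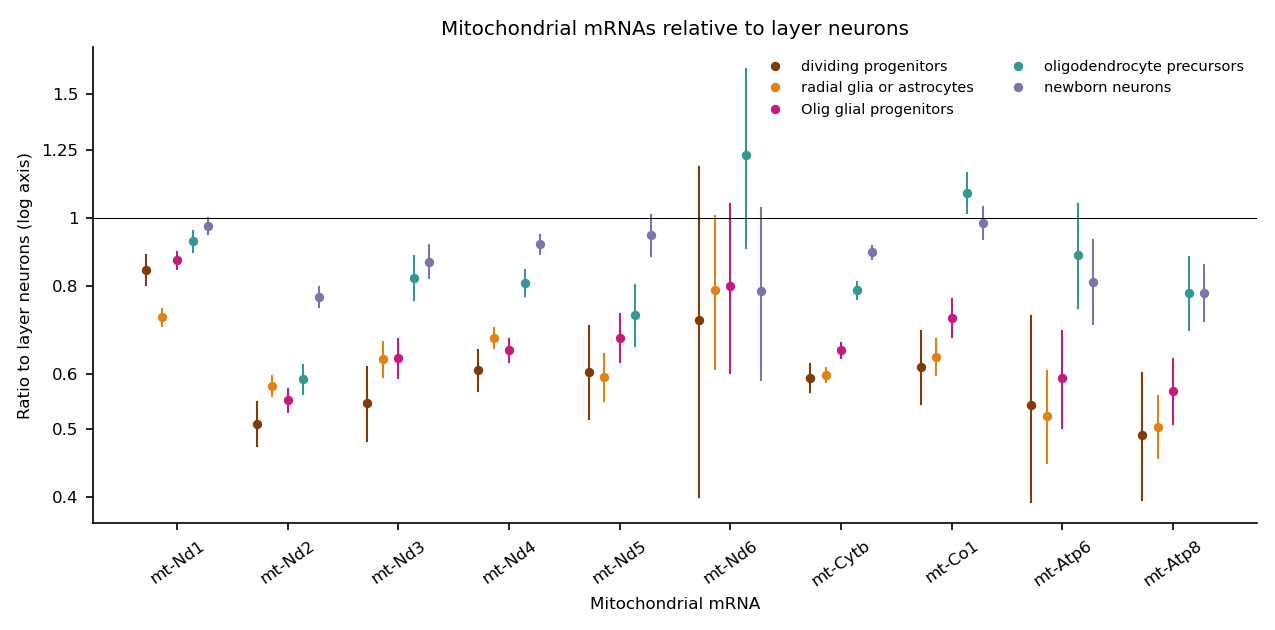
Ratio of each mitochondrial mRNA to layer neurons (log axis, per 1000000 of all UMIs) in 5 classes; bars are exact 95% intervals for counting error. The mt-Nd2 ratios of dividing progenitors, radial glia or astrocytes and both Olig1 or Olig2 classes lie at 0.51 to 0.59, and the mt-Nd1 ratios of the 5 classes at 0.72 to 0.97.

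The remaining mt-Co2, mt-Co3 and mt-Nd4l had only 16.0, 9.04 and 7.11 per 1000000 UMIs in layer neurons. Nuclear copies of mitochondrial DNA in the annotation hold the same letters over 100% of mt-Co2, 99.9% of mt-Co3 and 98.8% of mt-Nd4l, counted in 50-base stretches. The sequence of mt-Atp6 (99.5%) and mt-Nd3 (98.0%) is shared as well, that of mt-Nd4 (62.2%) and mt-Co1 (51.1%) in part, that of mt-Nd2 (8.19%) and mt-Nd5 (7.61%) to a small extent, and that of mt-Nd1, mt-Nd6, mt-Atp8 and mt-Cytb not at all. How such reads were counted is not stated, so the levels of these 9 genes are uncertain, and their part in the totals was not tested. Of the 4 genes with no shared stretch, mt-Nd1, mt-Atp8 and mt-Cytb gave 0.84, 0.49 and 0.59 in dividing progenitors, and mt-Nd6, with 15 UMIs there, 0.72 with an interval that includes 1 (0.40 to 1.18).

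Genes that serve the chain were described from lists. A listed gene entered by its mean over both classes, so some entered only through the class where they were high, and the counts and medians given here are a description of those that entered. Of 51 assembly factors 34 entered between radial glia or astrocytes and layer neurons, 10 higher and 7 lower (median 1.14, 0.989 over all genes), where 27.8% of all genes were higher and 26.7% lower. Coa6 (35.4 against 10.5 CPM, 3.37), Cox16 (2.72) and Acad9 (2.64) were highest, and Coa7 (0.25), Ecsit (0.34) and Lrpprc (0.47), an RNA-binding protein that stabilises mitochondrial mRNAs, were lowest. In newborn neurons 5 of 33 were higher and 2 lower (17.2% and 14.3% of all genes), and Sdhaf4 (1.80), Sdhaf1 (1.74) and the copper chaperone Cox17 (1.74) were highest. Sdhaf4 and Ttc19 were also the 2 of 32 past the fold between deep and upper layers (1.91 and 1.54), both higher, where 7.91% of all genes were.

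Of 32 genes of electron carriers and inner-membrane transport, 20 entered in radial glia or astrocytes, 6 higher and 4 lower (median 1.004, 0.989 over all genes), beside the same 27.8% and 26.7% of all genes. Etfb and Etfa, which bring electrons from fatty acid oxidation, were at 140 and 102 CPM against 16.1 and 17.8 in layer neurons (8.66 and 5.71). Atpif1, the inhibitor of ATP synthase, was at 438 against 1195 CPM (0.37), and Cycs, cytochrome c itself, at 77.5 against 194 (0.40). The adenine nucleotide carrier Slc25a5 was 3.82 times as high in Olig glial progenitors.

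Of 25 regulators of mitochondrial biogenesis 12 entered in both comparisons, 5 higher and none lower in radial glia or astrocytes and 7 higher and none lower in dividing progenitors. Ppargc1a and Gabpa, for example, were under 20 CPM in layer neurons and entered through the other class. Of all genes 27.8% were higher and 26.7% lower in the first comparison, and 31.8% and 24.4% in the second. The coactivator Ppargc1a was at 70.8 against 12.9 CPM in radial glia or astrocytes (5.49), and the factor Gabpa at 43.3 against 15.1 (2.86). Among interneurons Ppargc1a was at 73.1 CPM in Lhx6 or Sst cells and 4.01 in Adarb2 cells (18.2, 6.00 to 90.4). Of 24 citrate cycle genes 19 entered in radial glia or astrocytes, 4 higher and 3 lower (median 0.978), against 27.8% and 26.7% of all genes, with Pcx, which refills the cycle (94.6 against 4.52 CPM, 20.95), and Idh2 (229 against 21.6, 10.6) highest and Mdh2 lowest (0.58).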

How the data were processed

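The authors deposited UMI counts per gene and cell of 1 WT library, made with the 10x Chromium 3′ v3.1 kit. The submitters' processing notes name STAR, Cell Ranger, Seurat and the build mm9, and whether counting used strand is not given in the sources used here. Deposited counts were read as they stand, with totals equal to the deposited cell table in 11062 of 11062 cells. Cells with at least 1000 genes were gated by marker UMIs, and counts were summed per class. Upper bounds on other classes' markers in the gates were set after values were seen, and no doublet caller was run, so a setting without the cells above the 90th percentile of UMIs stands in for one.

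Ratios have exact 95% conditional binomial intervals, levels exact Poisson and shares Clopper-Pearson intervals. They cover counting error only. With 1 library no test was possible, and cells were not treated as replicates. The members and lists were chosen with earlier results of these data known. In each comparison the 6 highest and 6 lowest members by ratio with a mean of at least 20 CPM could be named, up to 3 each way from every other list, and all paralog families and mitochondrial genes. The scripts were checked on simulated counts. Sequences and motifs came from RefSeq (GRCm38.p6) and shared stretches from GENCODE transcripts. Python 3.11.15, NumPy 2.4.6, SciPy 1.17.1, pandas 2.3.3 and matplotlib 3.10.9 were used. One nuclear member, counted in the sums, is not reported by name.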

Additional observations from a re-analysis of the deposited data

Results flagged for a closer look

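Mitochondrial mRNAs took 13.7% of the UMIs of the 2044 cells with fewer than 1000 genes, which entered only the setting without the gene minimum, where their markers met a gate, against 2.27% in layer neurons. Their nuclear respiratory chain sum was 13181 CPM, against 24314 CPM.

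Rows of the table that are nuclear copies of mitochondrial DNA and share sequence with the mitochondrial mRNAs held 778 UMIs in the whole library, on 7 of 9 such rows, and the largest held 228. They belong to no member and entered no sum.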

How the results depend on the processing

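No paired analysis was possible because 1 library holds all cells. The settings on vascular bounds and immediate early genes were chosen after seeing the data. The mitochondrial ratios of all 10 comparisons kept their side of 1 in each of 8 alternatives. The nuclear ratio of dividing progenitors turned to 1.06 with few immediate early UMIs, and that of newborn neurons was 1.002 as a mean of per-cell shares, while those of the other 8 comparisons kept their side. For single genes and isoform shares 1602 values were as in the report, 190 differed by more than their interval and 1 reversed, Atp5g2 in dividing progenitors with few immediate early UMIs (0.517, 10 cells). Only a ratio past 1.5-fold in the report could be called reversed, by crossing 1, so a smaller ratio that crossed 1 is not among the reversed. For the sums and counts of the 5 comparisons not detailed next, 87 were as in the report and 38 differed. None of these could be called reversed, since no sum was past 1.5-fold and counts were not given that label. For the other 5 comparisons and the Atp5g1 share of radial glia or astrocytes, 75 values were as in the report and 57 differed. The values listed next are those that differed. The causes were not tested. With 1 library, differences between animals cannot be told apart from those between classes.

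With at most 5 immediate early UMIs the Atp5g1 share of radial glia or astrocytes was 51.2%, the mitochondrial ratio was 0.934 in deep over upper layers, 0.746 in dividing progenitors, 0.860 in newborn neurons and 0.669 in radial glia or astrocytes, and the nuclear ratio was 1.07, 1.06, 0.971 and 0.994 in the same order and 1.08 in interneurons. Members past the fold were then 18 in dividing progenitors, 1 in interneurons and 5 in newborn neurons. With gates raised by 2 UMIs the mitochondrial ratio was 0.916 in deep layers and 0.885 in interneurons, the nuclear ratio 1.05 and 1.16, and 5 members passed in newborn neurons. As means of per-cell shares the mitochondrial ratio was 0.916 in deep layers, 0.651 in dividing progenitors, 0.916 in interneurons and 0.869 in newborn neurons, and the nuclear ratio 1.06, 0.974, 1.07 and 1.002, with 0.995 in radial glia or astrocytes and 4 members past the fold in newborn neurons.

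Without the cells above the 90th percentile the mitochondrial ratio was 0.918 in deep layers, 0.596 in dividing progenitors and 0.912 in interneurons, the nuclear ratio 1.06 in deep layers, and 5 members passed in newborn neurons. With cells of 5000 to 15000 UMIs the mitochondrial ratio was 0.903 in deep layers, 0.605 in dividing progenitors, 0.883 in interneurons and 0.645 in radial glia or astrocytes, and the nuclear ratio 1.02 in deep layers, 1.19 in interneurons and 0.995 in radial glia or astrocytes. Members past the fold were then 2 in deep layers, 4 in interneurons and 5 in newborn neurons. Without the gene minimum the mitochondrial ratio of dividing progenitors was 0.663. Without the vascular bounds it was 0.668, that of radial glia or astrocytes 0.650, and the nuclear ratio there 0.964. Per all UMIs that nuclear ratio was 0.986. At 2-fold 0 members passed in deep layers, 4 in dividing progenitors, 0 in interneurons, 0 in newborn neurons and 1 in radial glia or astrocytes. With no minimum CPM the counts were 4 in deep layers, 6 in interneurons, 6 in newborn neurons and 14 in radial glia or astrocytes.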
